A study of Homo sapiens with 30 samples.

Results

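The genes described here encode the classical axon guidance cues and their receptors: semaphorins, plexins, neuropilins, ephrins, Eph receptors, Slits, Robo receptors, netrins, netrin-G proteins, UNC5 receptors, DCC and neogenin. They were chosen by gene symbol alone, which gave 73 of 20037 protein-coding RefSeq genes, 38 of them ligands and 35 receptors. Binding of RING1 and RNF2 was mapped by CUT&RUN, in which an antibody directs a nuclease to cut out the DNA beside a chromatin protein. The cells were wild-type neural progenitor cells, grown as a monolayer and derived from the H9 human embryonic stem cell line, with 2 libraries for each antibody. The lists fall into 2 sets, called set A and set B, each with 1 RING1 and 1 RNF2 peak list. IgG and H2AK119ub1 libraries, and cells whose RING1 or RNF2 gene had been edited with CRISPR-Cas9, were not analysed here.

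Ephrins and transmembrane semaphorins act on contact, and netrins, Slits and class 3 semaphorins are secreted. Growing axons and migrating neurons read them through Eph receptors, plexins with neuropilins, Robo receptors, DCC and UNC5 receptors, and turn toward or away from the source. RING1 and RNF2 are the alternative catalytic subunits of Polycomb repressive complex 1 (PRC1), which places ubiquitin on histone H2A at a single lysine and is known for keeping developmental genes silent. PRC1 is also known to gather at promoters rich in CpG dinucleotides. A peak records where a protein was called on DNA and says nothing about the level of the gene's transcript, so the cell type label could not be checked by expression. Of 8 progenitor marker genes, SOX1, SOX2, PAX6 and HES1 lay at RNF2 peaks of both sets, as did 20.8% of all protein-coding genes. NES, VIM and MSI1 lay at RNF2 peaks of set A but not of set B, and FABP7 lay at no peak in any list.

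The peak lists held 12891 RING1 peaks in set A, 659 RING1 peaks in set B, 16263 RNF2 peaks in set A and 5901 RNF2 peaks in set B. No source used here gives the depth of the libraries, so a gene without a peak is a gene at which none was called. Neither the labels nor the lists say whether the libraries of an antibody came from separate cultures. Peak lists carry no counts, so members were counted beside the share over all protein-coding genes and no test was run.

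The promoters printed here show the range of sequence under the results that follow. EFNA4 and EFNB2 are ephrin genes with RNF2 peaks of high fold in both sets. SLIT2 and EPHA5 carried the broadest RNF2 peaks of set B among the guidance genes. SEMA3D had peaks over a transcription start inside its annotated span, and SEMA3E had no peak in any list. The last 4 were chosen after their values were seen, and NTNG2, first by the same rank as EFNA4, had no entry in the sequence table. Each line gives the 250 bases before the annotated start, from RefSeq on GRCh38.p14 (hg38), 5′ to 3′ on the gene's own strand, with every CG in capitals. The positions are chr1:155063490-155063739 on the plus strand for EFNA4, chr13:106535663-106535912 on the minus strand for EFNB2 and chr4:20251655-20251904 on the plus strand for SLIT2. They are chr4:65670490-65670739 for EPHA5, chr7:85187057-85187306 for SEMA3D and chr7:83649140-83649389 for SEMA3E, all on the minus strand.
EFNA4: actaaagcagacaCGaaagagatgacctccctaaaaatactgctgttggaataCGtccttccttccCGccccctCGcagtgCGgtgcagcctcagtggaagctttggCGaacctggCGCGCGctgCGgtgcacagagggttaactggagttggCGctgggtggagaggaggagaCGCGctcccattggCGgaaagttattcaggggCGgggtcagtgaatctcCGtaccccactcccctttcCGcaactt
EFNB2: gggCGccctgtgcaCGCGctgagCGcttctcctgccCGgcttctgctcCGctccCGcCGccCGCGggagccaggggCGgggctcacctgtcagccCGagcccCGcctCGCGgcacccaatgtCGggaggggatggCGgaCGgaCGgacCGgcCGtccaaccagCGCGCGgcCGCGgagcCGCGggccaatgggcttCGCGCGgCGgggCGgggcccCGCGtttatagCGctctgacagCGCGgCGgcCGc
SLIT2: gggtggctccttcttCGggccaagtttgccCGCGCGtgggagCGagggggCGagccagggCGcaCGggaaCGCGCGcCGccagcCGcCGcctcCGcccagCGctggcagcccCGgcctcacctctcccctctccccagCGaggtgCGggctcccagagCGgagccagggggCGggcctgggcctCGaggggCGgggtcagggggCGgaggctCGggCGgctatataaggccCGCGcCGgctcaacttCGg
EPHA5: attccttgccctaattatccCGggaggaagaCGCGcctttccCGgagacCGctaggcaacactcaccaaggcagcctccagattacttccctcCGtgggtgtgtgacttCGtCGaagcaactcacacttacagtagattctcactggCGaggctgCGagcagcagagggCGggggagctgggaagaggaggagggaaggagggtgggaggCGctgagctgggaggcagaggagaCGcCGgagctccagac
SEMA3D: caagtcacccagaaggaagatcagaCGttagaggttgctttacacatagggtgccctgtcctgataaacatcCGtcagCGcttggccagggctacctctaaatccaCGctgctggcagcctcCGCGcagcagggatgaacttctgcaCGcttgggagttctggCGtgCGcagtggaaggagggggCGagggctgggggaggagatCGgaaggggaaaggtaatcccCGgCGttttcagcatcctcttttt
SEMA3E: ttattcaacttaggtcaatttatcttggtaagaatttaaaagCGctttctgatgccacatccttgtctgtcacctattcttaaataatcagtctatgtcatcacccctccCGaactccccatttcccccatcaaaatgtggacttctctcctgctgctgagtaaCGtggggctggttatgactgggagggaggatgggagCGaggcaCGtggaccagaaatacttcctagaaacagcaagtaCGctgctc
These windows hold 17 CG in EFNA4, 40 in EFNB2, 30 in SLIT2, 14 in EPHA5, 13 in SEMA3D and 6 in SEMA3E. The RNF2 peaks of both sets covered the whole window at EFNA4, SLIT2 and EPHA5. At EFNB2 the set A peaks of RING1 and RNF2 covered it, while the set B RNF2 peak lay just upstream.

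Most of the guidance genes lay at peaks of both proteins in set A. A gene counted as marked when a peak overlapped a window of 2 kb on either side of an annotated gene end. RING1 peaks of set A marked 52 of the 73 guidance genes (71.2%), against 45.6% of all protein-coding genes. RNF2 peaks of set A marked 59 (80.8%), against 56.1% of all genes. RNF2 peaks of set B marked 35 (47.9%), against 21.7% of all genes. In each of these 3 lists the share of guidance genes was above the share of all genes. The short RING1 list of set B marked 0 of the 73, against 1.32% of all genes, and so 0 had RING1 in both sets (1.31% of all genes) and 0 had peaks in all 4 lists (1.28%). RING1 peaks of set B lay within 50 kb of 0 guidance genes, against 3.05% of all genes, and within 500 kb of 13.7%, against 13.3%. The closest was to SEMA4G, at 76623 bp.

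All 35 genes with RNF2 in set B also had RNF2 in set A. So did 4161 of the 4343 protein-coding genes with RNF2 in set B, so this nesting was near the background. RNF2 in both sets was found at 47.9% of guidance genes, against 20.8% of all genes. RNF2 of set B without set A marked 0 guidance genes, against 0.908% of all genes. RING1 of set A together with RNF2 of both sets marked 34 (46.6%), against 19.1% of all genes. Within the genes with RNF2 in both sets, RING1 of set A was present at 34 of 35 guidance genes (97.1%), with EPHB2 as the exception, against 92.0% of all such genes, so that share was near the background. In set A, 50 genes had both proteins (68.5%, against 43.0% of all genes). NEO1, which encodes the netrin and RGM receptor neogenin, and SEMA4B had a RING1 peak with no RNF2 peak at a gene end, a pattern found at 2.62% of all genes. RNF2 without RING1 was seen at 9 genes: EPHB2, NTN5, NTNG1, ROBO2, SEMA3C, SEMA4D, SEMA7A, SLIT1 and SLIT3 (12.3%, against 13.1% of all genes). The shares of genes with only 1 of the proteins were therefore close to those over all genes. No peak in any list was found at 12 genes (16.4%), against 40.6% of all genes: EPHA1, EPHA8, EPHB6, PLXNA4, PLXNB3, ROBO4, SEMA3A, SEMA3D, SEMA3E, SEMA3G, SEMA4A and SEMA6B. The authors' consolidated regions, a list without values, lay at 35 guidance genes (47.9%), against 21.0% of all genes. Of the 4255 regions, 100% overlapped an RNF2 peak of set A and 99.6% one of set B. The regions are therefore not independent of the RNF2 calls, and a match with them was built in. They covered 34 of the 35 genes with RNF2 in both sets, leaving out SEMA3F and adding PLXNB2.

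**Figure D1:**
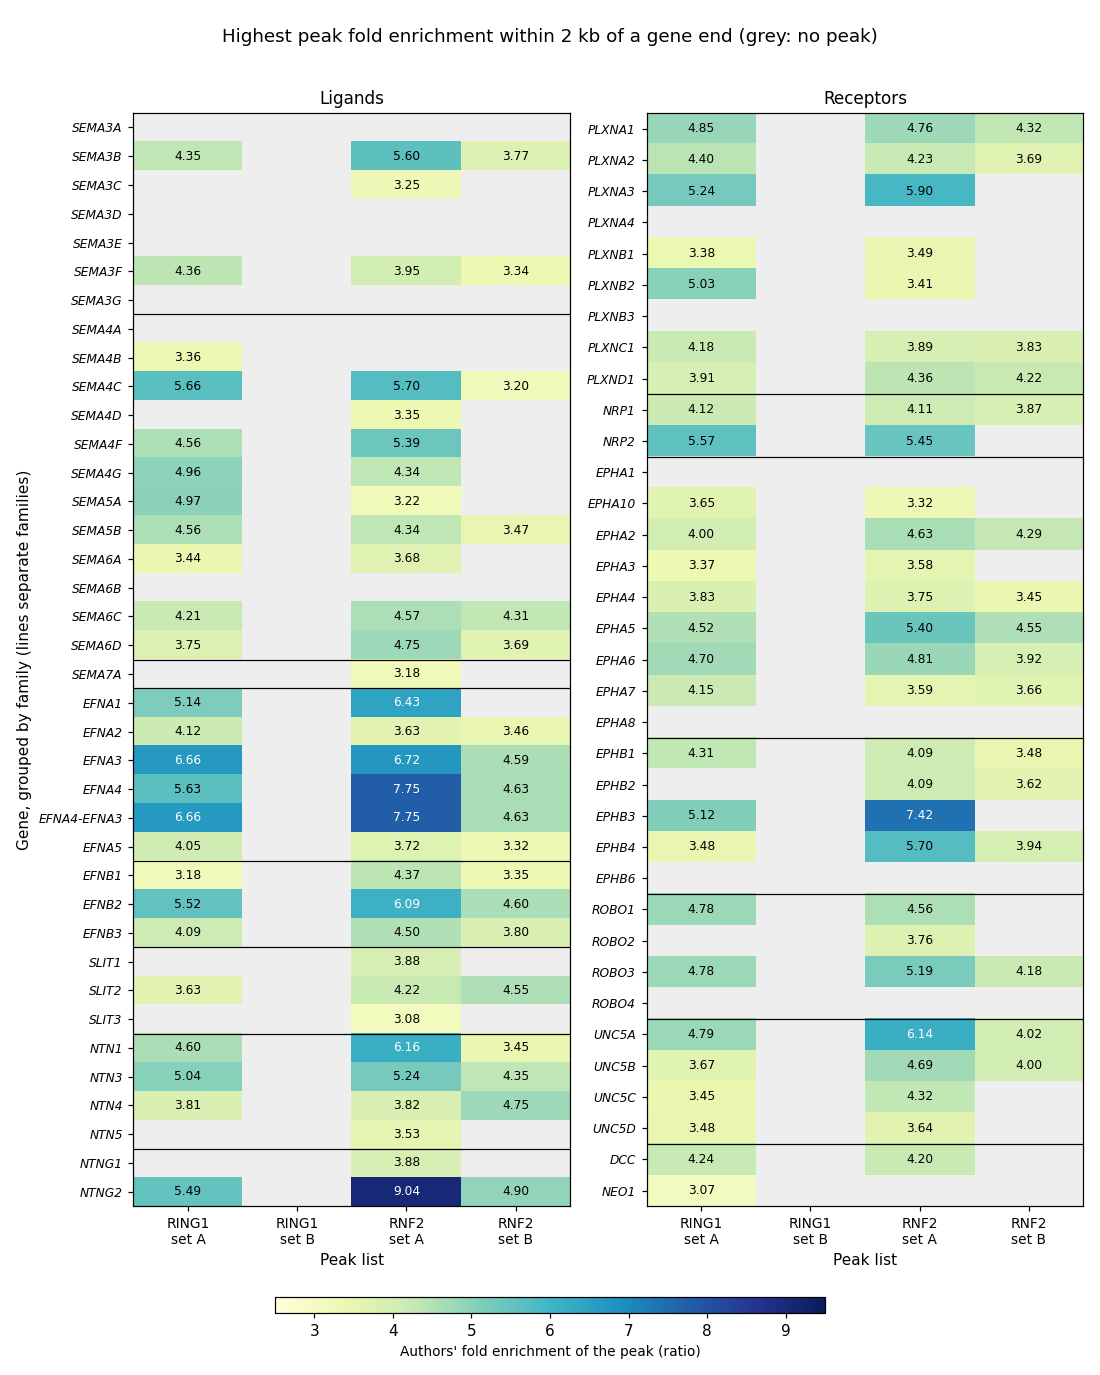
Fold enrichment of the highest peak within 2 kb of a gene end, by gene (y axis, ligands left and receptors right) and peak list (x axis); colour and printed number give the authors' ratio, and grey means no peak. The RING1 column of set B is grey throughout, and the ephrin block is filled in the other lists except for EFNA1 in RNF2 set B.

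The families were compared by the share of their genes with a peak. RNF2 of set B lay at 8 of 9 ephrin genes (88.9%), 8 of 14 Eph receptor genes (57.1%), 6 of 12 genes for netrins and their receptors and 5 of 11 plexin and neuropilin genes (45.5%). It lay at 6 of 20 semaphorin genes (30.0%) and 2 of 7 Slit and Robo genes (28.6%). Over all genes the share was 21.7%. Ligands and receptors as wholes were near each other, with RNF2 of set B at 19 of 38 ligand genes and 16 of 35 receptor genes. In set A, RING1 marked 25 ligand genes (65.8%) and 27 receptor genes (77.1%), against 45.6% of all genes. RNF2 of set A marked 31 ligand genes (81.6%) and 28 receptor genes (80.0%), against 56.1%. The same all-gene shares apply to the family counts that follow. Families this small move by many percent with 1 gene, and no difference between them was tested.

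**Figure D2:**
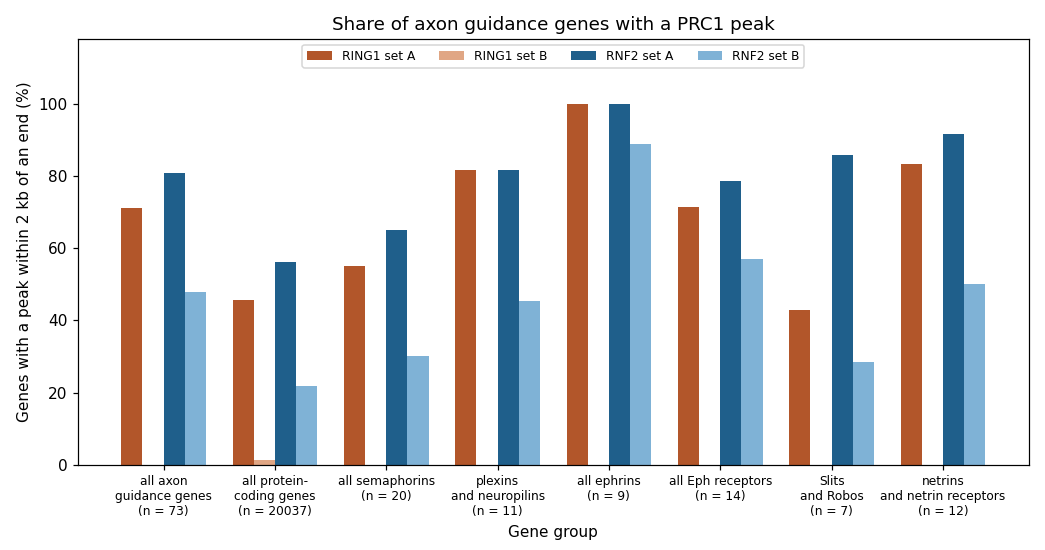
Share of genes with a peak within 2 kb of a gene end (y axis, percent) for all 73 guidance genes, for all 20037 protein-coding genes and for each ligand and receptor family (x axis), with a bar for each peak list. In set A the ephrins reach 100% with both antibodies, and RNF2 of set B reaches 88.9%, and no family has a RING1 bar in set B.

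Ephrins, the membrane-bound ligands of Eph receptors, were the family in which peaks were most complete. The values given are the authors' fold enrichment of the highest peak at the gene, which ranks peaks within a list but not between lists. The highest peak can lie at a different gene end in each list. Where 3 folds or widths follow each other they stand for RING1 set A, RNF2 set A and RNF2 set B. All 9 ephrin genes had RING1 and RNF2 in set A, and all but EFNA1 had RNF2 in set B. EFNA3 and EFNA4 lie side by side on chromosome 1, followed by EFNA1, and a readthrough gene, EFNA4-EFNA3, spans the first pair and shares their peaks, so these are not independent entries. EFNA4 had a fold of 5.63 for RING1 in set A, 7.75 for RNF2 in set A and 4.63 for RNF2 in set B. Its RNF2 peaks lay over the start and also lie at ADAM15, whereas its highest RING1 peak lay past the 3′ end at chr1:155070640-155072010. EFNA3 had 6.66 for RING1 in set A, near its 3′ end, with 5.1 over its start. It had 6.72 for RNF2 in set A and 4.59 for RNF2 in set B. Its RNF2 peak in set A ran for 7971 bp at chr1:155078285-155086255, over most of the gene, and 94.3% of the peaks in that list had a fold no higher. EFNB2, a ligand with roles in vessels as well as axons, had 5.52, 6.09 and 4.60 in short peaks of 1028, 1247 and 408 bp. EFNB3 had 4.09, 4.50 and 3.80, and EFNB1, on the X chromosome, had 3.18, 4.37 and 3.35. EFNB2 thus had the highest fold of the B-type ephrins in all 3 lists. EFNA2 had 4.12, 3.63 and 3.46, and EFNA5, a cue of topographic maps, had 4.05, 3.72 and 3.32. EFNA1 had 5.14 for RING1 and 6.43 for RNF2 in set A, both in peaks past its 3′ end that also lie at SLC50A1.

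Eph receptors, the tyrosine kinases that bind ephrins, had peaks at 10 of 14 genes for RING1 in set A, 11 for RNF2 in set A and 8 for RNF2 in set B. EPHA5, a receptor of the nervous system, had folds of 4.52 for RING1 in set A, 5.40 for RNF2 in set A and 4.55 for RNF2 in set B. The matching peaks were 1761, 6194 and 8990 bp wide, and the widest, at chr4:65663516-65672505, was matched or passed in width by 3.44% of the peaks in its list. EPHA5 was therefore one of the genes at which the RNF2 peak was wider in the shorter list. EPHB3 had 5.12 for RING1 and 7.42 for RNF2 in set A, both in peaks past its 3′ end, and no RNF2 peak at a gene end in set B, where a peak of 3.67 lay inside the gene. EPHB4 had 3.48, 5.70 and 3.94, and these peaks also lie at SLC12A9. EPHA2 had 4.0, 4.63 and 4.29, and EPHA6 had 4.70, 4.81 and 3.92. EPHB1 had 4.31, 4.09 and 3.48, in peaks of 302, 2643 and 1384 bp. EPHB2 had an RNF2 fold of 4.09 in set A, 3.62 in set B, and no RING1 peak at a gene end, with a RING1 peak of 3.36 inside the gene. EPHA4, a receptor for ephrins of both types, had 3.83, 3.75 and 3.45, and EPHA7 had 4.15, 3.59 and 3.66. EPHA3 had 3.37 for RING1 and 3.58 for RNF2 in set A, and EPHA10 had 3.65 and 3.32. EPHA1, EPHA8 and EPHB6 had no peak in any list, so the EphA and EphB groups each held genes with and without a called peak.

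Semaphorins, which mostly repel axons, had peaks at 11 of 20 genes for RING1 in set A, 13 for RNF2 in set A and 6 for RNF2 in set B. None of their peaks at gene ends reached 5 kb, and the widest highest-fold peak, at SEMA6A in RNF2 set A, was 2981 bp. Of the 7 secreted class 3 genes, RING1 of set A marked 28.6% and RNF2 of set A 42.9%, both below the all-gene shares. RNF2 of set B marked 2 of the 7 (28.6%), near its all-gene share of 21.7% for so few genes. Among the class 3 genes SEMA3B and SEMA3F had peaks at a gene end in RING1 set A and in RNF2 of both sets. SEMA3B had 4.35, 5.60 and 3.77, and SEMA3F had 4.36, 3.95 and 3.34, the last in a peak near the 3′ end. The set B RNF2 peak of SEMA3F was therefore not at its start, and with windows of 1 kb it was not counted. Transmembrane semaphorins had peaks at 9 of 12 genes in both set A lists and at 4 in RNF2 set B. SEMA4C had 5.66, 5.70 and 3.20, with the highest peak of each list past the 3′ end. SEMA6C had 4.21, 4.57 and 4.31, with the set A peaks at its 3′ end and the set B peak at its start. The set B peak also lies at LYSMD1, and over the SEMA6C start the set A folds were 3.64 and 4.36. SEMA6D had 3.75, 4.75 and 3.69. SEMA5B had 4.56, 4.34 and 3.47. In set A only, SEMA4F had 4.56 for RING1 and 5.39 for RNF2, SEMA4G had 4.96 and 4.34, SEMA5A had 4.97 and 3.22, and SEMA6A had 3.44 and 3.68. SEMA3C and SEMA4D had an RNF2 peak alone in set A, of 3.25 and 3.35, and SEMA4B a RING1 peak alone, of 3.36 over 244 bp. SEMA7A, the lipid-anchored member, had 1 peak, with an RNF2 fold of 3.18 in set A.

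Plexins, the semaphorin receptors, had peaks at 7 of 9 genes in both set A lists and at 4 in RNF2 set B. PLXNA1 had 4.85 for RING1 in set A, 4.76 for RNF2 in set A and 4.32 for RNF2 in set B. PLXND1, a receptor also used by blood vessels, had 3.91, 4.36 and 4.22, and PLXNC1 had 4.18, 3.89 and 3.83. PLXNA2 had 4.40, 4.23 and 3.69. These 4 were the plexins with RNF2 at a gene end in both sets. PLXNB2 had a RING1 fold of 5.03 in a peak of 4425 bp past its 3′ end, which also lies at MAPK11, and an RNF2 fold of 3.41 in set A at its 5′ gene end. A further RNF2 peak of 4.93 lay 851 bp downstream of its listed start, inside the gene. PLXNA3 had 5.24 for RING1 and 5.90 for RNF2 in set A, in peaks past its 3′ end, and PLXNB1 had 3.38 and 3.49. The neuropilins, which let plexins respond to secreted semaphorins, split in set B: NRP1 had 4.12, 4.11 and 3.87, and NRP2 had 5.57 for RING1 and 5.45 for RNF2 in set A only. The NRP2 peak of RNF2 was 6619 bp wide, against 1687 bp for RING1, at chr2:205680275-205686893.

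Netrins and their receptors had RING1 of set A at 10 of 12 genes, RNF2 of set A at 11 and RNF2 of set B at 6. NTNG2, a membrane-anchored relative of netrins, had the highest RNF2 fold of all 73 genes in both sets: 5.49 for RING1 in set A, 9.04 for RNF2 in set A and 4.90 for RNF2 in set B. Its peaks on chromosome 9 were 4579, 6359 and 6358 bp wide, and the RING1 peak was the widest of that list at a guidance gene. NTN4, a secreted netrin, had 3.81, 3.82 and 4.75, in peaks of 2219, 3298 and 5949 bp. NTN3 had 5.04, 5.24 and 4.35, and its set A RNF2 peak of 5697 bp also lies at TBC1D24. NTN5 and NTNG1 had an RNF2 peak alone in set A, of 3.53 and 3.88. NTN1, the best-known attractant of the family, had 4.60, 6.16 and 3.45 at its gene end, and larger values farther in. Inside NTN1, with the RING1 peak 17084 bp from the end, RING1 of set A had 5.63 over 5095 bp, RNF2 of set A had 7.11 over 5978 bp and RNF2 of set B had 4.68 over 6221 bp. NTN1 was thus more strongly marked inside the gene than at its end in all 3 lists.

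UNC5 receptors, which mediate repulsion by netrin, had RING1 and RNF2 of set A at all 4 genes and RNF2 of set B at UNC5A and UNC5B. UNC5A had 4.79, 6.14 and 4.02, and UNC5B had 3.67, 4.69 and 4.0. UNC5C had 3.45 for RING1 and 4.32 for RNF2 in set A, and UNC5D had 3.48 and 3.64. DCC, the attractive netrin receptor, had 4.24 for RING1 and 4.20 for RNF2 in set A, in peaks of 601 and 485 bp, and none in set B. NEO1 had a RING1 fold of 3.07 and no RNF2 peak at a gene end. The repulsive UNC5A and UNC5B were therefore the only netrin receptors with RNF2 at a gene end in both sets.

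Slits, which repel axons from the midline, had RNF2 of set A at all 3 genes, while SLIT2 alone had RING1 of set A and RNF2 of set B at a gene end. SLIT2 had 3.63 for RING1 in set A over 1675 bp, 4.22 for RNF2 in set A over 6485 bp and 4.55 for RNF2 in set B over 8807 bp. The last peak, at chr4:20250153-20258959, was matched or passed in width by 3.49% of the peaks in its list. SLIT1 and SLIT3 had set A RNF2 folds of 3.88 and 3.08 at a gene end, and in set B had RNF2 peaks only inside the gene. Of the Robo receptors, ROBO3, which sets when axons cross the midline, had 4.78, 5.19 and 4.18. Its set A RNF2 peak, at chr11:124862063-124870249, ran for 8187 bp and was the widest of that list at a guidance gene. The RING1 peak over its start was 3952 bp wide with a fold of 4.20, and the RING1 peak of 4.78 upstream of it was 780 bp wide. ROBO1 had 4.78 for RING1 over 239 bp and 4.56 for RNF2 over 3929 bp in set A. ROBO4, a receptor of blood vessels that neighbours ROBO3, had none. ROBO2 had an RNF2 fold of 3.76 in set A at its gene end, over 463 bp.

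In fold the guidance genes lay near the median of each list, and in width they lay above it. Their median fold was 4.33 in RING1 set A, against 4.19 over all genes with a peak. It was 4.34 in RNF2 set A, against 4.33, and 3.92 in RNF2 set B, against 3.85. Above that all-gene median stood 29 of 52, 30 of 59 and 19 of 35 guidance genes in these lists. Their median width was 1134.5 bp in RING1 set A, against 802 bp over all genes with a peak. It was 2195 bp in RNF2 set A, against 1156 bp, and 1520 bp in RNF2 set B, against 897 bp. Wider than the all-gene median were 37 of 52 (71.2%), 48 of 59 (81.4%) and 26 of 35 (74.3%) genes. Peaks of at least 5 kb marked 0 guidance genes in RING1 set A, against 2.25% of all genes, and 0 in RING1 set B, against 0.225%. In RNF2 set A they marked 8, against 3.51% of all genes: EFNA3, EFNA4-EFNA3, EPHA5, NRP2, NTN3, NTNG2, ROBO3 and SLIT2. In RNF2 set B they marked EPHA5, NTN4, NTNG2 and SLIT2 (5.48%, against 1.99%). Among genes with a peak these shares were 13.6% of guidance genes, against 6.27% of all genes, in RNF2 set A and 11.4%, against 9.16%, in RNF2 set B, the second near the background. The guidance genes are also long, with a median of 70340 bp against 24115 bp over all genes, and the part of gene length in the widths was not tested.

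**Figure D3:**
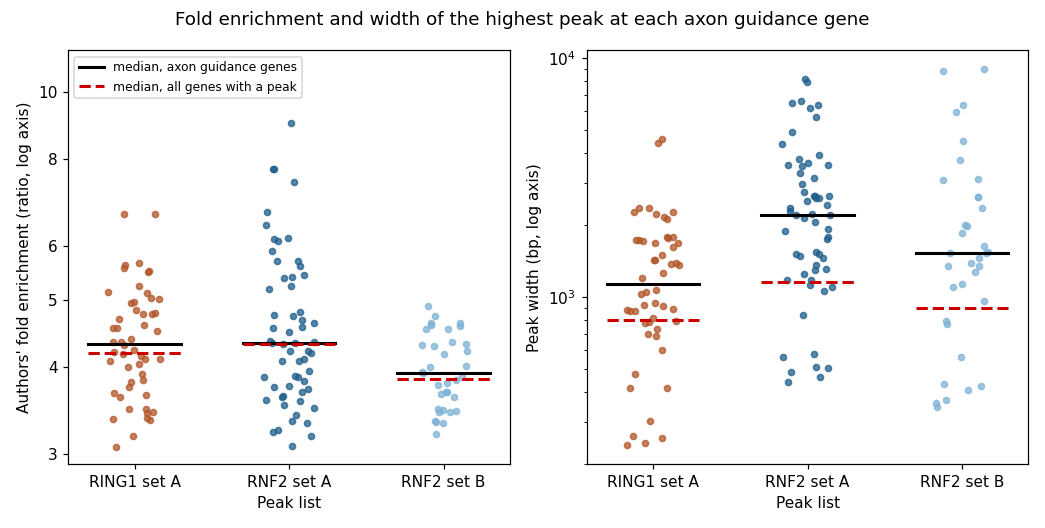
Authors' fold enrichment (left, log axis) and width in bp (right, log axis) of the highest peak at each guidance gene, by peak list (x axis); points are genes, solid lines their medians and dashed lines the medians of all genes with a peak. The medians of fold nearly coincide, while the widths of the guidance genes lie higher in all 3 lists, with RNF2 peaks up to 8990 bp.

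Among the most significant peaks the guidance genes were closer to the background in set A. At −log10 q of at least 5, RING1 of set A marked EFNA3, EFNA4, EFNA4-EFNA3, EFNB2, NRP2 and SEMA4C, 6 genes (8.22%, against 7.97% of all genes). RNF2 of set A marked 15 (20.5%, against 15.7%), and RNF2 of set B marked NTN4 alone (1.37%, against 2.56%). RING1 of set B marked 0, against 0.0250%. When only the 659 peaks of highest significance were kept per list, RING1 of set A marked EFNA3 and EFNA4-EFNA3 (2.74%, against 3.70%), and RNF2 of set A marked EFNA4, EFNA4-EFNA3 and NTNG2 (4.11%, against 3.91%). RNF2 of set B then marked 7 genes (9.59%, against 3.55%): EFNA3, EFNA4-EFNA3, EFNB2, EPHA5, NTN4, NTNG2 and SLIT2. Ephrins, the readthrough gene included, thus made up 4 of the 6 guidance genes at the most significant RING1 peaks.

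The highest-fold RING1 and RNF2 peaks of a gene ranked alike in fold and less so in width. Across the 50 genes with both in set A, Spearman's rank correlation was 0.63 for fold and 0.29 for width, against 0.67 and 0.64 over 8620 genes. Across the 35 genes with RNF2 in both sets, the rank correlation was 0.51 for fold and 0.55 for width, against 0.50 and 0.63 over 4161 genes. These are descriptions over genes, which share libraries and are not replicates. Each list gives its own highest-fold peak. At some genes, such as EFNA4 and PLXNB2, the RING1 and RNF2 peaks compared thus lie at different gene ends. The RING1 peak was the wider at 8 of the 50 genes (16.0%), near the share over all such genes (1634 of 8620). RNF2 peaks were wider in set B than in set A at 9 of 35 genes (25.7%), against 15.1% of all genes with RNF2 in both sets. EPHA5, NTN4 and SLIT2 were among the 9, as were EFNA4 and EFNA4-EFNA3, which share a peak.

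Nearly all guidance genes with a peak had one at the 5′ end, as did nearly all other genes with a peak. Strand and start were listed for 62 of the 73. In RING1 set A all 43 of these with a peak had one at the 5′ end, against 95.1% of all genes with a peak. In RNF2 set A 49 of 50 did, against 96.6%, with NTN5 as the exception. In RNF2 set B 27 of 29 did, against 91.7%, with SEMA3F and SEMA4C as exceptions. Peaks at both ends were found at 9 of 43, 9 of 50 and 4 of 29 of these genes, against 13.5%, 14.3% and 13.4% of all genes with a peak. The outermost listed start itself lay under a RING1 peak of set A at 33 of 62 genes (53.2%, against 32.6% of 15842 genes). It lay under an RNF2 peak of set A at 42 (67.7%, against 46.5%) and under one of set B at 15 (24.2%, against 13.0%). RING1 of set B lay over the start of 0, against 0.391%. Peaks over the start reached a median of 472 bp upstream and 941 bp downstream for RING1 in set A. For RNF2 they reached 890 and 1205.5 bp (set A) and 878 and 1106 bp (set B). Of the RING1 peaks of set A over a start, 18 of 33 (54.5%) extended farther into the gene than away from it, against 51.0% over all genes. For RNF2 these were 30 of 42 for set A (71.4%, against 53.1%) and 11 of 15 for set B (73.3%, against 54.3%).

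**Figure D4:**
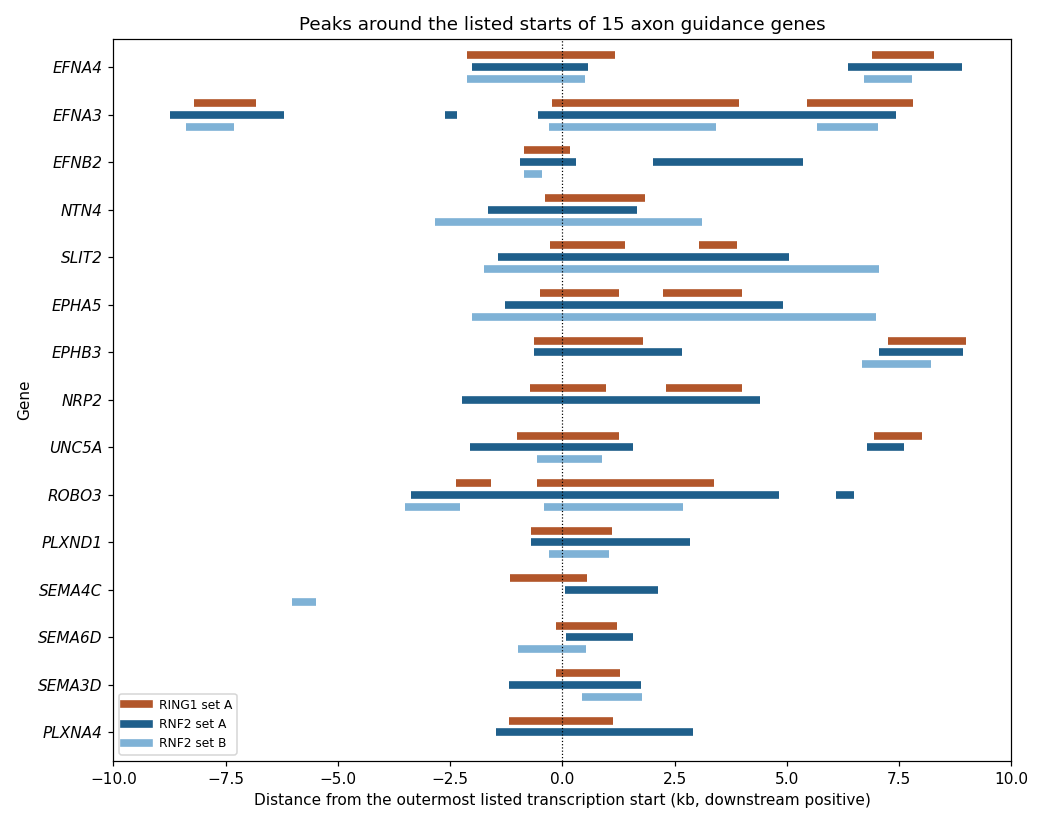
Extent of the peaks within 10 kb of the outermost listed start (x axis, kb, downstream positive) at 15 guidance genes (y axis), with a bar for each peak of RING1 set A, RNF2 set A and RNF2 set B. The genes were picked after their values were seen; SLIT2 and EPHA5 show RNF2 bars that extend mainly downstream, and SEMA3D and PLXNA4 show bars although neither had a peak at a gene end.

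Some genes had peaks at a transcription start inside the annotated span, and 2 of them, SEMA3D and PLXNA4, had none at an end. SEMA3D, a secreted semaphorin, has its listed start far inside the span. RING1 of set A covered that start with a fold of 3.56 over 1438 bp, 63038 bp from the nearer gene end, RNF2 of set A with 3.89 over 2922 bp, and RNF2 of set B had 3.31 in a peak 440 bp from it. PLXNA4 has its listed start at chromosome 7 position 132576470, under a RING1 peak of 3.98 and an RNF2 peak of 3.72 in set A, and RNF2 of set B had peaks of 4.87 and 3.30 elsewhere inside the gene. At an inner start of ROBO2 RING1 had 3.43 and RNF2 had 4.81 in set A. Both values belong to a gene that has RNF2 and no RING1 when gene ends alone are read. At an inner start of SEMA4B, RING1 had 3.11 and RNF2 had 3.94, and at one of SEMA3C RING1 had 4.38, all in set A. At an inner start of ROBO3, RING1 had 6.51, RNF2 had 6.35 in set A and RNF2 had 4.37 in set B, above its values at the gene end. Peaks away from the ends numbered 40 in 27 genes for RING1 set A, 51 in 29 genes for RNF2 set A and 18 in 12 genes for RNF2 set B. These genes made up 37.0%, 39.7% and 16.4% of the guidance genes, against 10.6%, 12.6% and 5.36% of all genes, which are shorter; the part of gene length was not tested. Of the 12 genes with no peak at an end, 3 had one inside (PLXNA4, SEMA3A and SEMA3D) and 9 had none anywhere in the gene. The nearest set A peaks to SEMA3E lay 200537 bp away for RING1 and 200137 bp away for RNF2.

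Some peaks are shared with other genes. The highest peak lay also within 2 kb of an end of a gene that is not a guidance gene at 9 of 52 genes in RING1 set A, 11 of 59 in RNF2 set A and 8 of 35 in RNF2 set B. Examples are EFNA1 with SLC50A1, EFNB3 with WRAP53 and PLXNA3 with LAGE3. In each of these lists the highest peak of SEMA3B also lies at GNAI2, and that of SEMA4C at ANKRD39. With all such peaks left out, 46, 53 and 30 guidance genes kept a peak in these lists. The same was not counted over all genes.

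CpG counts of the promoters were set against the RNF2 calls at gene ends. The count was made over 300 bases, 250 before and 50 after the start, for the 62 genes with an entry. The outermost listed start was used, which can lie away from the gene end that bears the peak. At ROBO2 that start is at chr3:76310880 and the RNF2 peak of set A at chr3:75906415-75906877. The median was 22 CpG over the guidance genes and 22 over all 15842 promoters. The 29 guidance genes with RNF2 in both sets had a median of 28, as did all genes of that class. The 21 with RNF2 in set A only had a median of 17, against 27 over all genes of the class, and the 12 with no RNF2 at a gene end had 14.5, against 8. RNF2 lay at a listed start in some of those 12, such as SEMA3D and PLXNA4, and the 9 without RNF2 at an end or a listed start had a median of 11, against 8 over all such genes. EFNB2 had 49 CpG, a number reached by 2.08% of promoters, and SLIT2 had 36. EPHA8 had no peak although it had 51 CpG, a number reached by 1.30% of promoters, and its nearest peak, of RING1 in set A, lay 69716 bp away. EPHB6 had 3 and SEMA3E had 6. Low CpG content and the lack of a peak therefore did not always go together. Among promoters with at least 25 CpG, RING1 of set A marked 85.7% of 28 guidance genes, against 65.3% of all such genes. RNF2 of set A marked 85.7%, against 79.2%, and RNF2 of set B marked 60.7%, against 30.9%. Among promoters with 15 to 24 CpG, the shares of 19 guidance genes were 68.4%, 89.5% and 47.4%, against 54.8%, 67.4% and 25.3% of all such genes.

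**Figure D5:**
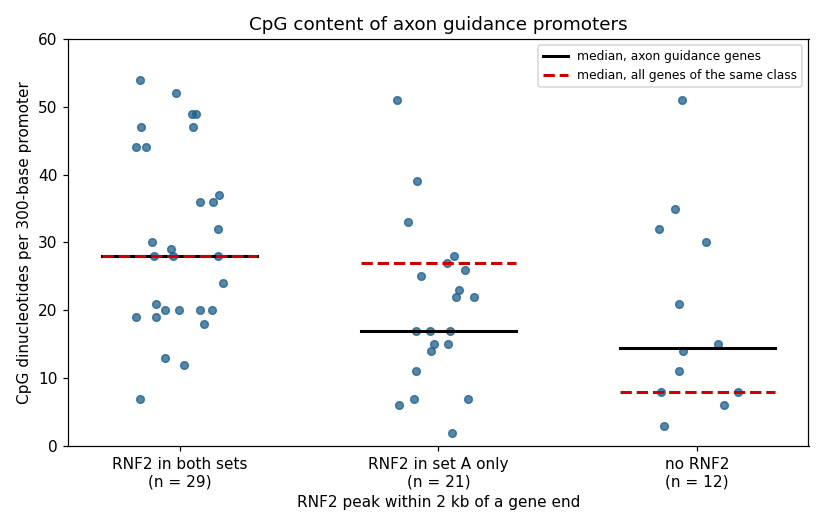
CpG dinucleotides in the 300-base promoter (y axis) of 62 guidance genes by RNF2 class (x axis); points are genes, solid lines their medians and dashed lines the medians of all genes of the same class. The class with RNF2 in both sets centres on 28, and 1 gene without RNF2 at a gene end, EPHA8, stands at 51.

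Other genes of axon guidance were read from lists of further cues and surface proteins (29 genes) and of cytoplasmic effectors (38 genes). The further cues had RING1 of set A at 19 genes, RNF2 of set A at 21 and RNF2 of set B at 14, a share of 48.3% that lay beside the 47.9% of the ligands and receptors above. Their set A shares were 65.5% for RING1, against 45.6% of all genes, and 72.4% for RNF2, against 56.1%. The effectors had RING1 of set A at 25 genes (65.8%) and RNF2 of set A at 27 (71.1%), above the same shares of all genes. RNF2 of set B lay at 9 effector genes (23.7%), near the 21.7% of all genes. RING1 of set B lay at 0 of either list. CXCL12, a chemokine, had 3.73 for RING1 in set A, 4.61 for RNF2 in set A and 4.18 for RNF2 in set B. Its receptor CXCR4 had 4.04, 4.32 and 4.48, and LRIG1, a leucine-rich repeat membrane protein, had 5.32, 4.58 and 4.49. Genes named from these lists were ranked by the smaller of their RNF2 folds in set A and set B. That they had RNF2 in both sets was therefore fixed by the choice. CNTN4 and TENM1, which encode neuronal surface proteins, had a smaller RNF2 fold of 3.82 each. Among effectors, CRMP1 and DPYSL5, of the family that relays semaphorin signals, were named by the same rank. Of that family, DPYSL2 had 3.67, 4.25 and 3.29, and DPYSL3 and DPYSL4 had peaks in set A only. CRMP1 had 4.29, 4.22 and 4.46, and DPYSL5 had 4.79, 5.72 and 4.11. The adaptor NCK1 had 4.40, 4.57 and 3.78, and ARHGEF12, an effector coupled to plexin-B receptors, had 3.65, 3.91 and 3.72.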

How the data were processed

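RING1 and RNF2 CUT&RUN of wild-type H9 neural progenitor cells, made with a commercial kit per the labels' protocols, was analysed from 4 deposited broad peak lists and 1 consolidated region list. The series has 30 samples, of which 4 wild-type libraries are used. The submitters' processing notes name MACS2 2.2.9.1, deepTools 3.5.2, bedtools 2.30.0, Picard 2.8.1, SAMtools 1.9, BWA 0.7.17 and the build hg38, without roles or settings. The fold enrichment of each peak is the authors' ratio. The deposited significance values are −log10 of q, the lowest being near 1, and the p and score columns were not used. The control library behind the lists, and whether antibodies share it, are not given in these sources. The part of the control was not tested. The set numbers could not be tied to the replicate numbers in the labels. Library depth is likewise unknown, which leaves no counting interval to give.

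Peaks on the assembled chromosomes (1 to 22, X and Y) were set against 20037 RefSeq protein-coding genes on GRCh38.p14 (the assembly behind hg38). A gene was called where a peak shared at least 1 bp with 2 kb on either side of an annotated gene end, and where several peaks qualified the highest fold was used. The highest-fold peak also gives the width. Strand, start and promoter sequence came from the RefSeq promoter table, which matched 62 of 73 members. It held no entry for EFNB3, EPHA10, NRP1, NTN1, NTN3, NTNG2, SEMA3A, SEMA6A, SEMA6B, UNC5B and UNC5D. The assignment of peaks to genes was tested on simulated data. Python 3.11.15 was used with matplotlib 3.10.9, SciPy 1.17.1, numpy 2.4.6 and pandas 2.3.3.

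Members and lists were chosen with earlier results of these data known. Genes were named where they had no peak, had RING1 without RNF2, ranked among the 5 highest or 5 widest of a list, or were among the 3 of their family with the largest smaller-of-both-sets RNF2 fold. From each list of other guidance genes up to 4 were named by that same value, with ties kept. Further members were named after their values were seen. Alternatives were windows of 1 and 5 kb, whole gene bodies, listed starts, an overlap of 500 bp, a −log10 q of 5, lists of equal length, autosomes only and single sets.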

Additional observations from a re-analysis of the deposited data

How the results depend on the processing

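No paired analysis was possible because the peak lists give no test and the set numbers are tied to no replicate. Most alternative values stayed within the limits used, which were 1.5 times for counts and 0.297 in fold or 477 bp in width for medians. The limits for medians are the standard deviations between the RNF2 medians of set A and set B in these same data. They are thus no outside measure of spread. Values that stayed include counts that were 0 throughout, such as RING1 of set B. RING1 of set B marked 0 guidance genes under every alternative run. The order used next is RING1 set A, RING1 set B, RNF2 set A and RNF2 set B. With windows of 1 kb the lists marked 50, 0, 58 and 30 genes, against 43.6%, 1.11%, 54.4% and 20.3% of all genes. With windows of 5 kb they marked 53, 0, 60 and 37, against 49.1%, 1.59%, 59.2% and 24.4% of all genes. With −log10 q of at least 5, RING1 set A marked 6 (7.97% of all genes), RNF2 set A 15 (15.7%) and RNF2 set B 1 (2.56%). RNF2 in both sets then marked 0, and its share over all genes was not computed. The median fold was then 5.64, 6.14 and 4.75 in RING1 set A, RNF2 set A and RNF2 set B. The median width was 1711.5 bp in RING1 set A and 5949 bp in RNF2 set B. Both RNF2 set B values are those of NTN4 alone. With each list kept to the 659 of highest significance, RING1 set A marked 2 (3.70% of all genes), RNF2 set A 3 (3.91%) and RNF2 set B 7 (3.55%). RNF2 in both sets then marked 2, and its share over all genes was not computed. The median fold was then 6.66, 7.75 and 4.55, and the width 2355 bp in RING1 set A and 5949 bp in RNF2 set B. These medians rest on 2, 3 and 7 genes. The RING1 genes, EFNA3 and EFNA4-EFNA3, share their peak, as do EFNA4 and EFNA4-EFNA3 in RNF2 set A. So among the most significant peaks the share of guidance genes in set A was closer to that of all genes. With set B left out, set A alone had RING1 at 52 genes, RNF2 at 59 and both proteins at 50. The shares over all genes were 45.6%, 56.1% and 43.0%. With set A left out, set B alone had RING1 at 0 genes (1.32% of all genes), RNF2 at 35 (21.7%) and so both at 0. These are counts within the set kept, not of genes called in both sets. Leaving out the readthrough gene (51, 0, 58 and 34 of 72 genes) and leaving out peaks at outside genes were chosen after seeing the data. The all-gene shares beside the first are 45.6%, 1.32%, 56.1% and 21.7%. Depth was not given, so genes without a peak cannot be told from genes bound below detection.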
